A study of Mus musculus with 24 samples.

Results

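RANKL, encoded by Tnfsf11, is a cytokine of the TNF family that stands on the cell surface or is shed from it. It binds its receptor RANK, encoded by Tnfrsf11a, on osteoclast precursors and drives them to become bone-resorbing osteoclasts, and osteoprotegerin (OPG), encoded by Tnfrsf11b, is a secreted decoy receptor that takes up RANKL before it reaches RANK. Fibroblast-like stromal cells and osteoblasts are known sources of both RANKL and OPG, so the balance of the 2 transcripts in a stromal cell is often written as a ratio. These 3 genes were described here out of 55471 genes counted, in RNA-seq of mouse embryonic fibroblasts (MEFs). They were chosen by the levels that they showed in these counts over the 8 groups, so their own levels and differences are given as a description, without a test.

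The 24 libraries fell into 8 groups of 3. Wild-type (WT) MEFs, Lkb1-/- MEFs and clones A1 and A2 of Lkb1/Crtc2 knockout MEFs were each left untreated or stimulated for 6 h with IL-1β, an inflammatory cytokine. LKB1, encoded by Stk11, is a kinase that through the salt-inducible kinases holds CRTC2, a coactivator of the transcription factor CREB, out of the nucleus. The study's methods describe the WT and Lkb1-/- cells as 3T3 MEF lines, and each double-knockout genotype is 1 CRISPR-edited clone that also lacks LKB1, so a difference between genotypes and a difference between 1 line or clone and another cannot be told apart. The comparison of Lkb1-/- with WT asks what changed with the loss of LKB1, and that of each clone with Lkb1-/- what changed with the loss of CRTC2 on top of it. The labels number the libraries of a group without saying that they came from separate cultures, so the p-values measure the spread between these libraries only.

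Each library held between 38842901 and 48594394 counts assigned to genes. Levels are given as CPM, counts scaled by library size and TMM factor, and 3 counts, the limit that a library with 0 counts allows, stood for 0.0604 to 0.0783 CPM. Stk11 fell from 86.0 ± 1.68 CPM (SD, n = 3) in untreated WT to 17.3 ± 1.24 CPM in untreated Lkb1-/- libraries (log2 fold change -2.31, edgeR FDR = 1.1e-16). Crtc2 was 81.2 ± 1.8 CPM in untreated Lkb1-/- libraries and fell to 42.9 ± 2.11 CPM in clone A1 (FDR = 2.2e-09) and 49.8 ± 0.864 CPM in clone A2 (FDR = 9.9e-08). In every group 8 of 10 fibroblast markers exceeded 3 counts in each library, whereas the mean of Thy1 lay below 0.04 CPM throughout. Other fibroblast markers differed between the lines. Pdgfra was 4.58 ± 0.997 CPM in untreated WT and 342 ± 63.7 CPM in untreated Lkb1-/- libraries, Dcn 0.411 ± 0.0653 and 218 ± 12.1 CPM, and Col1a2 780 ± 165 and 63.0 ± 15.7 CPM. The part of these line differences in the values below was not tested.

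Tnfsf11 lies on the minus strand of chromosome 14 (GRCm38, 78277445 to 78308043), Tnfrsf11b on the minus strand of chromosome 15 (54250619 to 54278484) and Tnfrsf11a on the plus strand of chromosome 1 (105780718 to 105847981). All 3 are protein-coding, and no other annotated gene overlaps them. The promoters of Tnfsf11 and Tnfrsf11a are shown because CRTC2 acts through CREB, whose full site is the palindrome TGACGTCA (the CRE) and whose core is TGACG. The stretches are RefSeq sequence on GRCm38.p6, 5′ to 3′ on the strand of the gene. That of Tnfsf11 covers chr14:78308044-78308293, the 250 bases before the start, with the reverse complement of a TATA motif (TATAAA) in capitals. That of Tnfrsf11a covers chr1:105780473-105780672 and begins 250 bases before the RefSeq start, which lies a few bases downstream of the GENCODE start given above, with the reverse complement of a CRE core in capitals.
Tnfsf11 promoter: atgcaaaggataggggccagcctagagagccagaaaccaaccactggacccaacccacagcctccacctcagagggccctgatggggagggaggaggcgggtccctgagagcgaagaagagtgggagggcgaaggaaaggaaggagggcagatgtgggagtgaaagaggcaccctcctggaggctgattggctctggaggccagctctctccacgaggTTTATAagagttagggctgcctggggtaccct
Tnfrsf11a promoter: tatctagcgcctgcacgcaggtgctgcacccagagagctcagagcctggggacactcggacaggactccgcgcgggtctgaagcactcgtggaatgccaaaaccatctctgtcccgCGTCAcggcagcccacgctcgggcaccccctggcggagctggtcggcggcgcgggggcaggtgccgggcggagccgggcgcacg
Both strands of the 250 bases before the RefSeq start, from which positions are counted, were searched for the CRE, its core, the AP-1 motif TGANTCA, the RUNX motif TGTGGT, the TATA motif TATAAA, the STAT motif TTCNNNGAA and the NF-kB motif. The only match in the Tnfsf11 window was TATAAA on the opposite strand, 32 bases before the start, and 12.4% of 32851 promoter windows hold this motif. The only match in the Tnfrsf11a window was 1 CRE core on the opposite strand, 134 bases before the start, and 17.8% of windows hold one. A full CRE was in neither window and in 1.55% of all windows. The base composition of the pair was unlike. The Tnfrsf11a window had 31 CpG and a GC content of 73.6%, and the Tnfsf11 window 4 CpG and 60.4%, against medians of 6 CpG and 52.4% over all windows. A match is a string of letters only, and no match says nothing of sites elsewhere.

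Tnfsf11, the ligand, was at 0 counts in all 6 WT libraries, with or without IL-1β. In untreated Lkb1-/- MEFs it was 46.8, 49.9 and 60.1 CPM (52.2 ± 6.95, n = 3), from 2067, 2150 and 2523 counts. Every Lkb1-/- library therefore stood above every WT library, and the untreated difference was at least 731-fold against the limit of 3 counts per library. In untreated clone A1 it was 7.95, 7.13 and 4.78 CPM (6.62 ± 1.65), and in untreated clone A2 7.13, 6.81 and 8.92 CPM (7.62 ± 1.14). Both clones lay below every Lkb1-/- library and overlapped each other, with log2 fold changes against Lkb1-/- of -2.98 (SE 0.305) in A1 and -2.78 (SE 0.300) in A2. The clones still carried 208 to 405 counts per untreated library, above the 0 of WT. The 8 osteoblast markers, of a cell type known to make RANKL, summed highest in untreated Lkb1-/-, at 9.77 to 11.4 CPM against 5.99 to 7.37 in WT, 7.25 to 8.97 in A1 and 7.39 to 8.47 in A2. Most of that sum was Phex, at 10.2 ± 0.791 CPM in untreated Lkb1-/- and 6.44 ± 0.782 in WT, while Ibsp and Sost were at 0 counts in the untreated groups. After IL-1β the sum was lower, at 7.19 to 7.77 CPM in Lkb1-/-, 5.78 to 6.67 in A1 and 5.46 to 6.73 in A2. Tnfsf11 was higher after IL-1β in each of these. Of the 2 markers tested, 1 was higher and 1 lower in untreated A2 than in Lkb1-/- (edgeR FDR under 0.05). Over all genes 17.1% were higher and 15.1% lower. The part of these markers in the Tnfsf11 values was not tested.

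After IL-1β, Tnfsf11 was 95.3, 129 and 151 CPM in Lkb1-/- libraries (125 ± 27.8), at least 1691-fold above stimulated WT. It was 22.9, 22.9 and 24.8 CPM in clone A1 (23.5 ± 1.12) and 29.95, 45.6 and 86.0 CPM in clone A2 (53.8 ± 28.9). Stimulated and untreated libraries did not overlap in any of the 3 LKB1-deficient genotypes. The log2 fold change with IL-1β was 1.26 (SE 0.276) in Lkb1-/-, 1.83 (SE 0.299) in A1 and 2.82 (SE 0.300) in A2. Both clones stayed below all stimulated Lkb1-/- libraries, by a log2 fold change of -2.41 (SE 0.288) in A1 and -1.22 (SE 0.275) in A2. For this gene the spread in stimulated A2 was the widest of the 6 groups with counts, with a coefficient of variation of 53.7% against 4.76% in stimulated A1. Without the A2 library at 86.0 CPM, the log2 difference of stimulated A2 from Lkb1-/- was -1.73, and the IL-1β response of A2 was 2.34.

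In order of level, the groups ran from stimulated Lkb1-/- through stimulated A2, untreated Lkb1-/-, stimulated A1, untreated A2 and untreated A1 to both WT groups. Stimulated A2 overlapped untreated Lkb1-/-, and the untreated clones overlapped, and the other neighbours in this order did not, apart from the WT groups at 0. Relative to other genes, per kb of exon, Tnfsf11 lay above 95.6% of 17522 genes tested in stimulated Lkb1-/- MEFs, above 86.7% in untreated Lkb1-/- and above 47.3% in untreated A1. These are RNA levels of cultures, in which fewer expressing cells and less RNA per cell cannot be told apart.

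**Figure D1:**
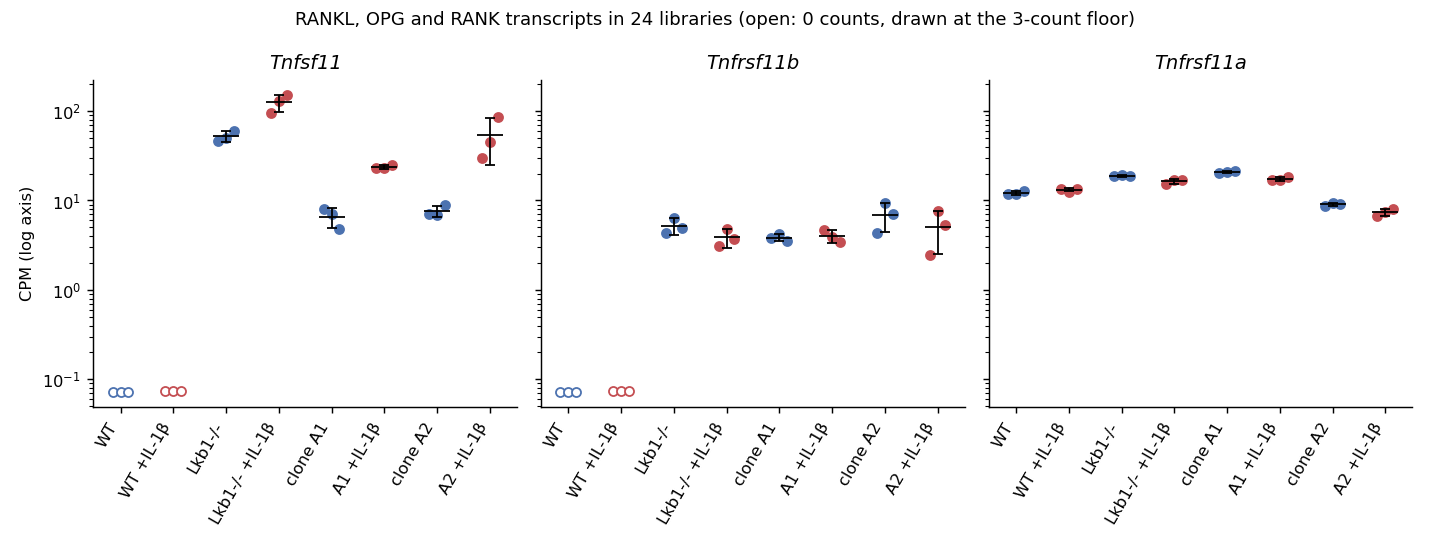
CPM (log axis) of Tnfsf11 (RANKL), Tnfrsf11b (OPG) and Tnfrsf11a (RANK) in each of the 3 libraries of 8 groups, with the mean and SD in black, untreated in blue and IL-1β in red. Open circles are libraries with 0 counts drawn at the limit of 3 counts: Tnfsf11 and Tnfrsf11b are at 0 in all 6 WT libraries, and Tnfsf11 moves over the widest range among the other groups.

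Tnfrsf11b, the decoy, was also at 0 counts in all 6 WT libraries. In untreated Lkb1-/- libraries it was 4.30, 6.45 and 4.95 CPM (5.23 ± 1.10), at least 73.3-fold above the WT limit. The decoy differed less between the clones and Lkb1-/- MEFs than the ligand did, and not in 1 direction. It was 3.78, 4.22 and 3.54 CPM in untreated A1 (3.85 ± 0.348) and 4.35, 9.38 and 7.0 CPM in untreated A2 (6.91 ± 2.51). The log2 differences from Lkb1-/- were -0.44 (SE 0.330) in A1, whose libraries lay just below, and 0.40 (SE 0.325) in A2, whose libraries overlapped. The untreated clones did not overlap each other, with A2 higher than A1 by a log2 difference of 0.84 (SE 0.329).

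With IL-1β, Tnfrsf11b was 3.07, 4.86 and 3.67 CPM in Lkb1-/- (3.87 ± 0.912), 4.68, 3.89 and 3.45 CPM in A1 (4.01 ± 0.627) and 2.43, 7.56 and 5.36 CPM in A2 (5.12 ± 2.58). Stimulated and untreated libraries overlapped in all 3 genotypes, with log2 fold changes of -0.43 (SE 0.330), 0.06 (SE 0.333) and -0.43 (SE 0.325). Between libraries of the same replicate number, Tnfrsf11b was lower with IL-1β in 3 of 3 in Lkb1-/- and in A2. In A1 it was lower in 2 of 3. The labels do not say what a number stands for. Each pair of neighbours in the order of the 6 groups overlapped. These values rest on 110 to 405 counts per library, where Tnfsf11 in the same 18 libraries had 208 to 6275.

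Counts of 0 in all 6 WT libraries with at least 10 in each of the other 18 were seen for 86 of 17522 genes tested (0.491%), among them Tnfsf11 and Tnfrsf11b. The opposite, 0 in all 18 and at least 10 in each WT library, was seen for 6 genes. Tnfsf11 and Tnfrsf11b were chosen with these levels known and had enough counts through the other 18 libraries only. The share is therefore a description and no support for them.

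The ratio of Tnfsf11 to Tnfrsf11b, each in counts per kb of exon, could not be formed in WT, where both were at 0. In untreated Lkb1-/- libraries it was 9.75, 13.7 and 15.3 in ascending order (12.9 ± 2.86), so RANKL transcripts outnumbered OPG transcripts in each. It was 1.70, 2.13 and 2.65 in untreated A1 (2.16 ± 0.475) and 0.915, 1.60 and 2.06 in untreated A2 (1.53 ± 0.579). In 1 untreated A2 library OPG thus exceeded RANKL. On the mean of log2 ratios, untreated Lkb1-/- stood 5.97-fold above A1 and 8.77-fold above A2, with no overlap.

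In each LKB1-deficient genotype the ratio was higher in every stimulated library than in any untreated one. It was 33.4, 39.1 and 51.7 in stimulated Lkb1-/- (41.4 ± 9.34), 6.15, 7.42 and 9.08 in stimulated A1 (7.55 ± 1.47) and 7.59, 15.6 and 20.2 in stimulated A2 (14.4 ± 6.38). The change with IL-1β was 3.21-fold in Lkb1-/-, 3.51-fold in A1 and 9.23-fold in A2. The ratio shares its numerator with the ligand values above and is no measurement independent of them. The clones overlapped each other under both treatments.

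**Figure D2:**
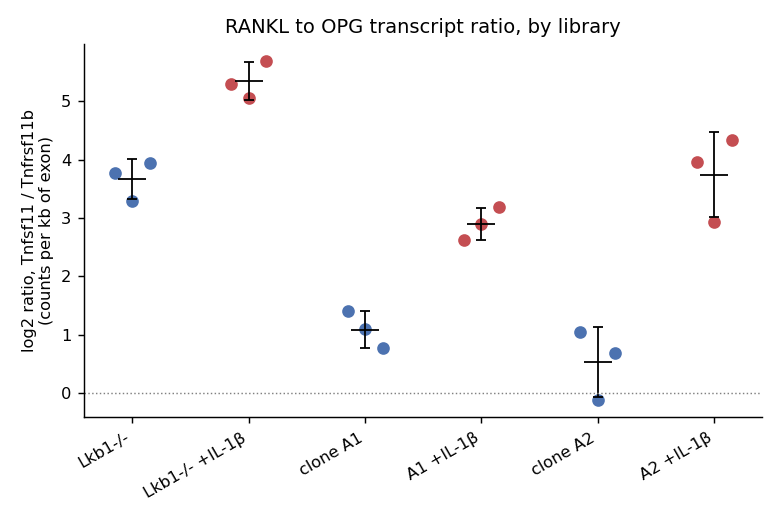
log2 ratio of Tnfsf11 to Tnfrsf11b (counts per kb of exon) in each library of the 6 LKB1-deficient groups, with mean and SD in black, untreated in blue, IL-1β in red and equal transcripts at the dotted line. Means run from 0.53 in untreated clone A2 to 5.35 in stimulated Lkb1-/- MEFs. WT is not drawn because both genes were at 0.

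Tnfrsf11a, the receptor, was the only gene of the 3 that WT MEFs expressed. It was 11.7, 11.8 and 12.9 CPM in untreated WT (12.1 ± 0.634), 18.7, 19.5 and 18.7 CPM in untreated Lkb1-/- (19.0 ± 0.466), 20.5, 20.7 and 21.3 CPM in A1 (20.9 ± 0.409) and 8.64, 9.45 and 9.05 CPM in A2 (9.05 ± 0.402). None of these 4 groups overlapped. The log2 difference was 0.65 (SE 0.0755) between Lkb1-/- and WT, 0.14 (SE 0.0745) between A1 and Lkb1-/- and -1.07 (SE 0.0763) between A2 and Lkb1-/-. The clones thus stood on opposite sides of their parent genotype, and A2 lay below A1 (log2 difference -1.21, SE 0.0764).

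With IL-1β, Tnfrsf11a was 13.6, 12.6 and 13.5 CPM in WT (13.2 ± 0.552), 15.2, 17.2 and 16.9 CPM in Lkb1-/- (16.4 ± 1.06), 17.0, 17.1 and 18.3 CPM in A1 (17.5 ± 0.751) and 6.67, 7.43 and 8.11 CPM in A2 (7.40 ± 0.721). The stimulated libraries lay below the untreated ones without overlap in Lkb1-/-, A1 and A2, with log2 fold changes of -0.21 (SE 0.0747), -0.26 (SE 0.0747) and -0.29 (SE 0.0776), and overlapped them in WT (0.12, SE 0.0759). Per kb of exon, RANK in untreated Lkb1-/- was 3.17 ± 0.0779 CPM per kb, between RANKL at 23.4 ± 3.11 and OPG at 1.86 ± 0.391. Of 8 markers of osteoclasts, the cells that RANK is known for, Itgb3 and Ctsk exceeded 3 counts in every library. Itgb3, an integrin subunit that other cells also express, was 8.19 ± 3.53 CPM in untreated WT, 18.3 ± 3.02 in Lkb1-/-, 9.27 ± 2.95 in A1 and 21.3 ± 7.36 in A2, and its Lkb1-/- libraries overlapped those of A2 but not those of WT or A1. The group means of Ctsk, the protease cathepsin K, lay between 0.505 and 0.622 CPM, and those of the other 6 markers, among them Acp5, the tartrate-resistant phosphatase, did not exceed the 0.1645 CPM of Oscar in stimulated WT. The sum of the 8 markers was not even over the untreated groups, at 5.36 to 12.6 CPM in WT, 17.2 to 22.2 in Lkb1-/-, 7.49 to 13.3 in A1 and 14.4 to 29.3 in A2, and its part in the Tnfrsf11a values was not tested. The 8 macrophage markers summed to 2.51 to 4.15 CPM in untreated WT, 4.36 to 5.93 in Lkb1-/-, 6.89 to 8.54 in A1 and 6.71 to 7.72 in A2, with Adgre1 at 0 counts in these groups. The 6 T cell markers summed to 0.938 to 1.72, 2.85 to 3.60, 4.80 to 5.10 and 4.05 to 4.47 CPM in the same order, with Lck as the only one above 3 counts in every library and Cd3e at 0 counts, and the epithelial markers did not exceed 0.499 CPM in any library. The part of these sums was not tested either.

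The other genes of the pathway came from lists that name 101 genes, and 83 of these had enough counts to be tested. The lists were chosen with earlier results of these data known. Between untreated Lkb1-/- and WT MEFs, 36 were higher and 19 lower at an edgeR FDR under 0.05. That is 66.3% of the 83, against 55.9% of all genes tested (30.1% higher and 25.8% lower). After IL-1β 37 were higher and 17 lower (65.1%, against 57.4% of all genes, 30.2% higher and 27.1% lower). Against untreated Lkb1-/-, 20 were higher and 19 lower in A1 (47.0%, against 35.3% of all genes, 18.9% higher and 16.4% lower). In untreated A2 it was 17 in each direction (41.0%, against 32.3% of all genes, 17.1% higher and 15.1% lower). Against stimulated Lkb1-/-, 17 were higher and 24 lower in A1 (49.4%, against 36.7% of all genes, 19.4% higher and 17.3% lower), and 15 higher and 16 lower in A2 (37.3%, against 32.8% of all genes, 17.1% higher and 15.8% lower). The median log2 fold change of the 83 genes was 0.30 between untreated Lkb1-/- and WT (0.26 with genes at the limit set to their bound) against 0.04 over all genes. So many genes of any kind differed between the lines and clones that calls in these lists are common by that background alone.

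**Figure D3:**
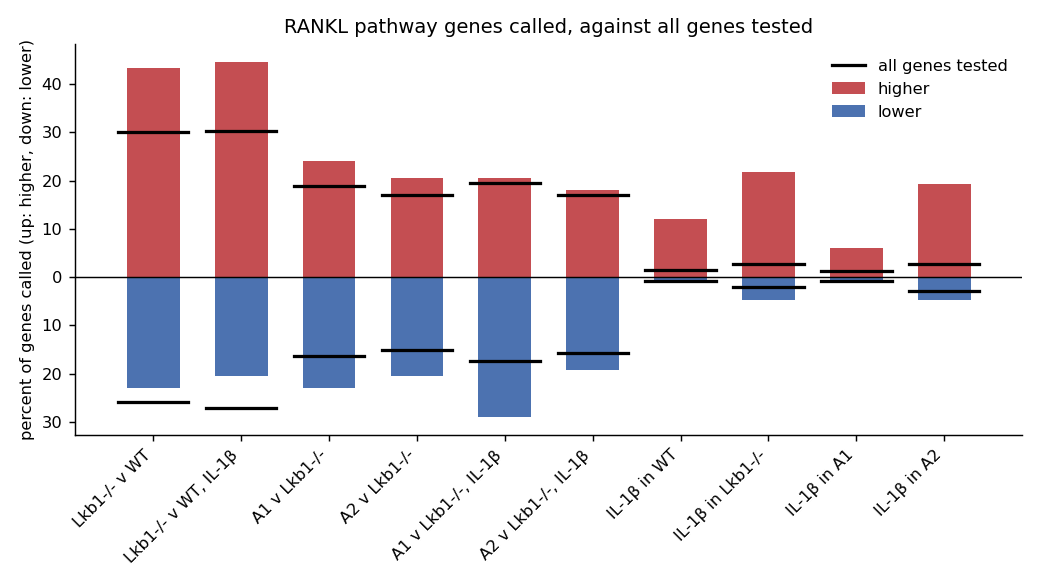
Percent of the 83 tested pathway genes called higher (red, upward) or lower (blue, downward) at an edgeR FDR under 0.05 in each comparison, with black lines at the percent of all 17522 genes tested. IL-1β in Lkb1-/- MEFs called 26.5% of the pathway genes, against 4.74% of all genes. The lists were chosen with earlier results of these data known, so the shares are no test of the pathway.

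Among receptors for agents that are known to induce RANKL in stromal cells, 9 of 15 were higher and 3 lower in untreated Lkb1-/- than in WT MEFs. That is 80.0%, against 55.9% of all genes tested. Ptger2, the EP2 receptor through which prostaglandin E2 raises cAMP, was at 0 counts in all 6 WT libraries. It was 4.70 ± 0.770 CPM in untreated Lkb1-/- (log2 fold change of at least 6.04, FDR = 4.9e-10) and fell to 1.19 ± 0.203 CPM in A1 (log2 -1.98, FDR = 4.8e-05) and 2.48 ± 0.371 CPM in A2 (-0.92, FDR = 0.016, a call lost when A2 replicate 2 or Lkb1-/- replicate 1 was left out). With IL-1β it rose to 11.7 ± 0.927 CPM in Lkb1-/- (1.31, FDR = 0.0059). Ptger4, the EP4 receptor, moved the other way in the clones, from 2.96 ± 0.393 CPM in untreated Lkb1-/- to 5.13 ± 0.322 CPM in A1 (FDR = 0.0033) and 5.51 ± 0.922 CPM in A2 (FDR = 0.0014).

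Vdr, the vitamin D receptor, was 0.451 ± 0.157 CPM in untreated WT and 16.03 ± 4.05 CPM in untreated Lkb1-/- MEFs (log2 5.14, FDR = 4.6e-11). It fell in A1 to 4.56 ± 0.476 CPM (-1.81, FDR = 2.2e-05) and was 13.5 ± 3.44 CPM in A2 (-0.25, SE 0.256, FDR = 0.51). Osmr, the oncostatin M receptor, rose from 28.6 ± 2.82 to 223 ± 11.6 CPM (log2 2.96, FDR = 1.3e-13), and Esr1, the estrogen receptor, by 2.41 (FDR = 4.6e-06). Il1r1, the signalling receptor for IL-1β itself, rose from 82.7 ± 10.3 CPM in untreated WT to 148 ± 16.9 CPM in Lkb1-/- (0.84, FDR = 2.9e-05). It fell to 92.3 ± 8.46 CPM in A1 (-0.68, FDR = 0.00064) and was 129 ± 14.99 CPM in A2 (-0.19, FDR = 0.33). Pth1r, the parathyroid hormone receptor, had means under 0.34 CPM in every group and was called higher in A1 than in untreated Lkb1-/- (1.93, FDR = 0.015, a call lost with unstranded counts and without A1 or Lkb1-/- replicate 3).

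Of 15 tested factors that are known to regulate Tnfsf11 or Tnfrsf11b, 7 were higher and 1 lower in untreated Lkb1-/- than in WT MEFs. That is 53.3%, near the 55.9% of all genes tested. Lef1 and Tcf7, partners of β-catenin in Wnt signalling, rose by 5.56 (FDR = 1.2e-11) and 1.93 (FDR = 9.7e-12) on the log2 scale, Sox9 by 2.18 (FDR = 1.4e-12) and Cebpb by 2.0 (FDR = 1.4e-07). Runx2, a regulator of osteoblast formation, was 76.8 ± 3.25 CPM in WT and 88.9 ± 5.60 CPM in Lkb1-/- (0.21, FDR = 0.037, a call lost with unstranded counts, with no filter, and without Lkb1-/- replicate 1, 2 or 3 or WT replicate 2 or 3). Foxc2, a forkhead factor, and Crem, a CREB-family gene that is itself a known CREB target, were lower in both clones. Crem fell from 9.80 ± 1.05 CPM in untreated Lkb1-/- to 5.70 ± 0.483 CPM in A1 (-0.78, FDR = 0.00015) and 4.66 ± 0.246 CPM in A2 (-1.07, FDR = 6e-06), and between Lkb1-/- and WT it did not pass the test untreated (0.30, FDR = 0.068) and was higher after IL-1β (0.45, FDR = 0.0077, a call lost without stimulated Lkb1-/- replicate 3 or WT replicate 1). Foxc2 fell by 1.67 in A1 (FDR = 3.9e-08) and by 1.63 in A2 (FDR = 6.2e-08) on the log2 scale. Junb fell by 0.76 in A1 (FDR = 0.0074) and by 0.74 in A2 (FDR = 0.01), the latter call lost without A2 replicate 1. Cebpb fell by 1.08 in A1 (FDR = 0.00053).

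**Figure D4:**
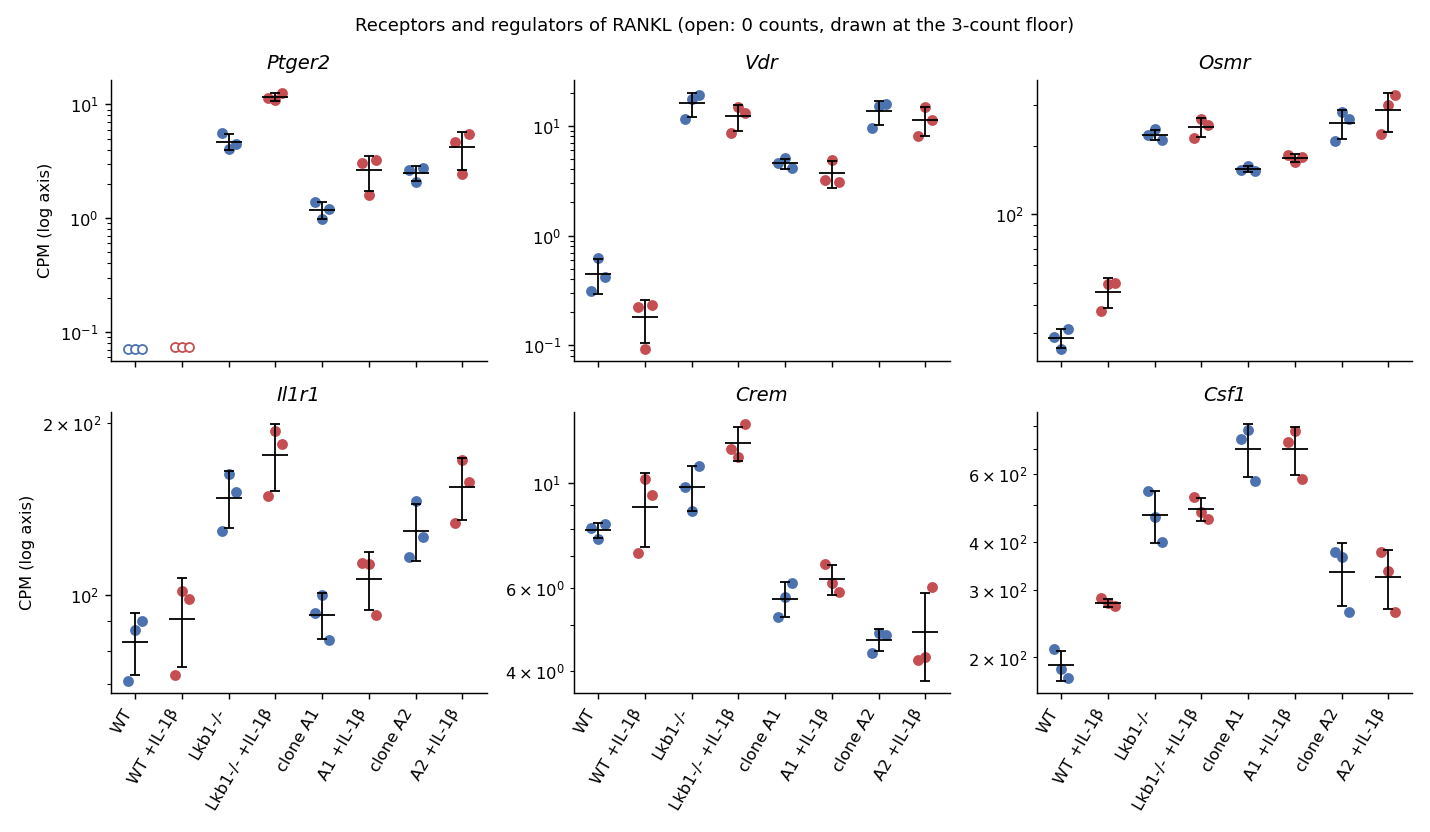
CPM (log axes, a separate range in each panel) of Ptger2, Vdr, Osmr, Il1r1, Crem and Csf1 in each library of 8 groups, with mean and SD in black, untreated in blue and IL-1β in red. Ptger2 is at 0 in all 6 WT libraries (open circles at the limit of 3 counts), Vdr is below 1 CPM in WT, and Crem lies lower in both clones than in Lkb1-/- MEFs.

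Of 6 partners of RANKL and OPG, 2 were higher and 1 lower in untreated Lkb1-/- than in WT MEFs. Csf1, the macrophage growth factor that osteoclast precursors need beside RANKL, rose from 191 ± 17.0 to 469 ± 72.4 CPM (log2 1.30, FDR = 2.9e-07). It then parted the clones, at 700 ± 110 CPM in A1 (0.58 above Lkb1-/-, FDR = 0.0048) and 334 ± 62.6 CPM in A2 (-0.49, FDR = 0.017, lost in the fit of only the groups compared and without A2 replicate 3 or Lkb1-/- replicate 1). Il34, the other ligand of the CSF1 receptor, fell by 0.79 on the log2 scale between WT and Lkb1-/- (FDR = 0.0013). Sdc1, a heparan sulfate proteoglycan of the surface to which OPG can bind, rose by 1.23 (FDR = 4.6e-09) and fell by 0.46 in A1 (FDR = 0.0021) and by 0.56 in A2 (FDR = 0.00049). Lgr4, which is also known as a RANKL receptor, was 92.7 ± 9.46 CPM in WT and 96.8 ± 12.0 CPM in Lkb1-/- (0.06, FDR = 0.69) and rose to 138 ± 7.40 CPM in A1 (FDR = 0.0018) and 150 ± 24.1 CPM in A2 (FDR = 0.00035). Tnfsf10, the cytokine TRAIL, which OPG also binds, had means under 1.4 CPM in every group.

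Of 4 proteases that can release proteins from the cell surface, RANKL among them, 3 were tested. Adam10 fell from 368 ± 35.0 CPM in untreated WT to 258 ± 17.1 CPM in Lkb1-/- (-0.51, FDR = 0.00057). Mmp14 was 187 ± 20.1 and 230 ± 37.9 CPM (0.30, FDR = 0.26).

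All 22 genes of RANK signalling were tested, and 6 were higher and 10 lower in untreated Lkb1-/- than in WT MEFs. That is 72.7%, against 55.9% of all genes tested. Traf6, the adaptor that RANK recruits, fell from 84.7 ± 1.53 to 57.8 ± 1.99 CPM (log2 -0.55, FDR = 1.6e-06), and was higher again in A2 at 72.4 ± 5.31 CPM (0.32 above Lkb1-/-, FDR = 0.0018). Nfatc1, the transcription factor that osteoclast formation depends on, rose by 1.01 (FDR = 6.5e-08), and Traf1 by 1.59 (FDR = 0.00039). Map3k14, the kinase of the non-canonical NF-κB pathway, was higher than in untreated Lkb1-/- by 0.84 in A1 (FDR = 3e-07) and 0.62 in A2 (FDR = 1.8e-05). Chuk, the kinase IKKα, fell by 0.47 in A1 (FDR = 2.2e-07) and by 0.43 in A2 (FDR = 9.2e-07).

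Within the wider family, 7 of 17 TNF ligands and 17 of 23 TNF receptors could be tested. Of the ligands 3 were higher in untreated Lkb1-/- than in WT MEFs (42.9%, against 55.9% of all genes). Among them was Eda, with 0, 4 and 1 counts in WT and 527, 504 and 552 in Lkb1-/- libraries (FDR = 7.8e-15). Of the receptors 10 were higher and 3 lower (76.5%), among them Tnfrsf9 (2.66 higher, FDR = 1.7e-09) and Eda2r (-4.31, FDR = 1e-05). Eda2r, a receptor for a form of ectodysplasin A, the product of Eda, was 1.91 ± 1.35 CPM in WT and 0.0930 ± 0.0241 CPM in Lkb1-/-, from 3, 5 and 4 counts. Tnfsf9, the ligand of Tnfrsf9, was lower than in untreated Lkb1-/- by a log2 fold change of -1.16 in A1 (FDR = 2.8e-06) and -0.57 in A2 (FDR = 0.0039).

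Since the lists were chosen with earlier results of these data known, the following shares are no test of the pathway. With IL-1β 10 of the 83 pathway genes were called higher and 1 lower in WT (13.3%, against 2.26% of all genes, 1.53% higher and 0.731% lower). In Lkb1-/- MEFs 18 were higher and 4 lower (26.5%, against 4.74%, 2.65% higher and 2.09% lower). In A1 5 were higher and 1 lower (7.23%, against 1.99%, 1.2% higher and 0.788% lower), and in A2 16 were higher and 4 lower (24.1%, against 5.68%, 2.81% higher and 2.86% lower). The count in WT was 4 without untreated WT replicate 2 and 7 without replicate 3, and that in A1 was 3 without untreated A1 replicate 2 or 3. With no filter on low counts the counts were 19 in WT, 16 in A1 and 31 in A2 (2.59%, 2.47% and 4.47% of all genes). With only the groups compared the count in A2 was 9 (1.54% of all genes). With the replicate number as a block the counts in WT, A1 and A2 were higher and are given at the end. The shares of all genes were then 9.3%, 9.61% and 17.9%. Nfkb1 rose in all 4 genotypes, by 0.78 in WT (FDR = 1.3e-05), 0.94 in Lkb1-/- (FDR = 5e-07), 0.71 in A1 (FDR = 4.8e-05) and 0.94 in A2 (FDR = 5.7e-07). Fas, a death receptor, rose by 2.08 in WT (FDR = 5.1e-05), 2.49 in Lkb1-/- (FDR = 1.6e-06), 1.91 in A1 (FDR = 9.4e-05) and 2.65 in A2 (FDR = 8.6e-07). Nfkb1 and Fas thus rose with IL-1β in the WT cells too, where Tnfsf11 stayed at 0 counts. Tnfsf15, a cytokine of the same family as RANKL, rose in Lkb1-/- from 0, 1 and 4 counts to 51, 94 and 63 (FDR = 6.3e-05), and Sox9 fell by 0.71 (FDR = 0.00033).

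When the IL-1β responses themselves were compared, 0 of the 83 pathway genes were called by edgeR between Lkb1-/- and WT (0.245% of all genes were, 0.137% higher and 0.108% lower), between A1 and Lkb1-/- (0.0285%) or between A2 and Lkb1-/- (0.0%). At an unadjusted p under 0.05 there were 14, 7 and 2 of the 83, beside 985, 433 and 388 of all 17522 genes. DESeq2 called 1, 1 and 0 (0.878%, 0.0871% and 0.0966% of all genes). Without a filter on low counts, edgeR called 8, 7 and 1 (0.943%, 0.383% and 0.185%). Once edgeR also fitted the replicate number, it called pathway genes for Lkb1-/- against WT and for A1 against Lkb1-/-. Their counts are given at the end, and the shares of all genes were 1.77% and 0.205%. The lack of calls for these 2 differences thus depended on the fit. For the members, the response of Tnfsf11 exceeded that in Lkb1-/- by 0.57 (SE 0.400) in A1 and 1.56 (SE 0.397) in A2 on the log2 scale, the latter 1.06 without the A2 library at 86.0 CPM.

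Of 53 annotated genes within 500 kb of the 3 genes, 17 had enough counts, and 13 of these were called between untreated Lkb1-/- and WT MEFs, beside the 55.9% of all genes. Around Tnfsf11 these were 3 genes. Akap11, 184 kb away, rose from 129 ± 0.711 to 320 ± 16.7 CPM (log2 1.31, FDR = 1.7e-10), Dnajc15 by 1.22 (FDR = 1.4e-10), and Dgkh, a diacylglycerol kinase 251 kb away, fell from 41.9 ± 1.36 to 9.64 ± 0.896 CPM (-2.12, FDR = 1.5e-11). In the untreated clones Dgkh was higher than in Lkb1-/- (0.93 in A1, FDR = 1.1e-05, and 0.54 in A2, FDR = 0.0029), whereas Akap11 (-0.24, FDR = 0.057, and -0.21, FDR = 0.1) and Dnajc15 (0.05 in both, FDR = 0.68 and 0.71) did not pass the test. The tested genes beside Tnfsf11 thus differed in both directions between the lines.

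Around Tnfrsf11b all 4 tested genes were higher in untreated Lkb1-/- than in WT MEFs. Colec10, 132 kb away, rose by at least 1.92 on the log2 scale (FDR = 0.00016), Mal2, 293 kb away, by at least 4.04 (FDR = 4e-07), Samd12 by 2.31 (FDR = 0.00066), and Ccn3, a matricellular protein gene 467 kb away, from 19.9 ± 2.25 to 124 ± 27.0 CPM (2.63, FDR = 2.6e-06). Ccn3 was higher still in both untreated clones, at 239 ± 48.1 CPM in A1 (0.95 above Lkb1-/-, FDR = 0.034, a call lost without A1 replicate 2 or 3 or Lkb1-/- replicate 1 or 3) and 605 ± 298 CPM in A2 (2.29, FDR = 4.1e-05). Around Tnfrsf11a, 1 of 10 tested genes was higher and 5 were lower. The higher call was lost in 7 of 14 alternative settings, and 1 of the lower calls in 8 of 14. The nearest tested gene, Relch, fell by 0.50 (FDR = 2.9e-07), Pign by 0.42 (FDR = 0.0031) and Zcchc2 by 0.32 (FDR = 0.00014), where Tnfrsf11a itself was higher. Zcchc2 was also lower in A2 than in untreated Lkb1-/- (-0.34, FDR = 0.0003).

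**Figure D5:**
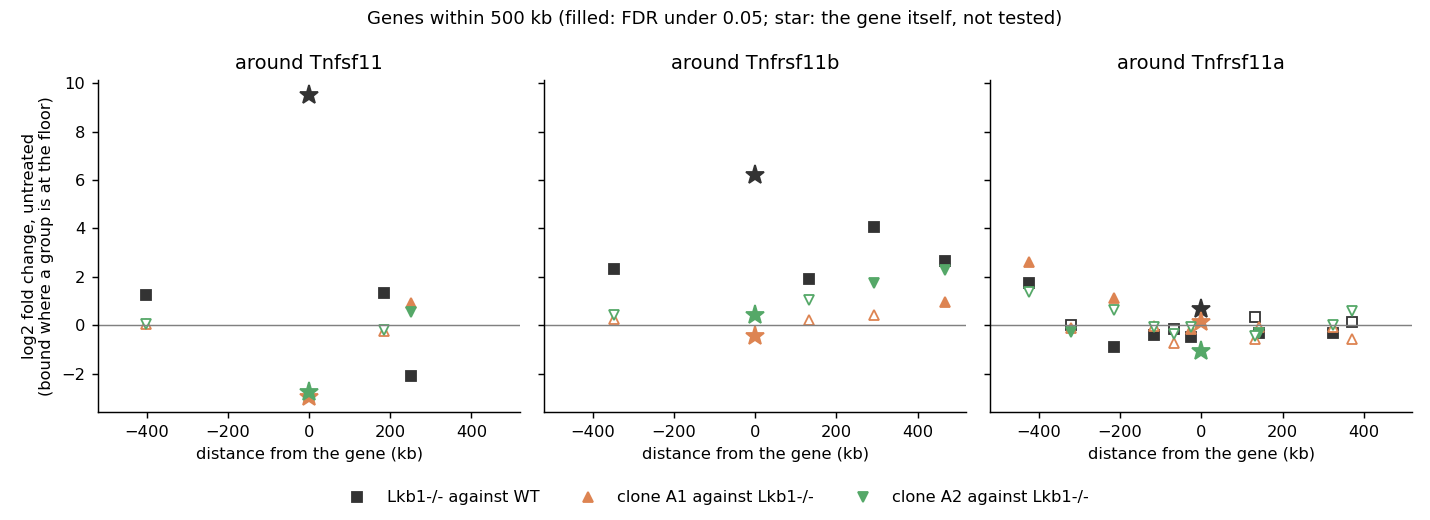
log2 fold change of genes within 500 kb of Tnfsf11, Tnfrsf11b and Tnfrsf11a in untreated cells, by distance from the gene in kb, for Lkb1-/- against WT (squares) and for clones A1 and A2 against Lkb1-/- (triangles). Filled symbols are called at an edgeR FDR under 0.05, stars are the 3 genes themselves (not tested), and genes with a group at the limit are drawn at their bound. Neighbours of Tnfsf11 go both ways, and all 4 neighbours of Tnfrsf11b are higher in Lkb1-/- MEFs.

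Over the 24 libraries, the genes with the pattern most like Tnfsf11 (Pearson's r of log2 CPM, as a description over points that share lines and treatments) were Ptgfr, Ttc39c, Smox, Gfra2 and Snai1, with r from 0.980 to 0.989. Ptgfr, the receptor of prostaglandin F2α, had means of 0.0149 CPM in untreated WT, 19.3 in Lkb1-/-, 6.62 in A1 and 8.83 in A2, and 41.4 in stimulated Lkb1-/-. Smox, spermine oxidase, had 5.97, 63.7, 34.1 and 43.0 CPM in the 4 untreated groups in that order and 123 in stimulated Lkb1-/-. Gfra2, a receptor of the GDNF family, was at 0 in WT and at 22.4 CPM in untreated Lkb1-/-. Most like Tnfrsf11b were Prickle2, Sv2a, Rab3b, Kctd17 and Ebf1 (r from 0.993 to 0.994), of which Prickle2 had means of 0.0, 8.40, 7.08 and 12.6 CPM in untreated WT, Lkb1-/-, A1 and A2. Most like Tnfrsf11a were Chic1, Ywhaq, Synj2bp, Cul2 and Rbbp8 (r from 0.926 to 0.947), with Chic1 at 18.1, 23.3, 23.3 and 14.3 CPM in the same groups.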

How the data were processed

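Counts of read pairs per gene from 24 RNA-seq libraries were analysed. The authors trimmed reads with Trim Galore 0.6.0, aligned them with STAR 2.7.8a to mm10 (GRCm38) with GENCODE annotation and deposited unnormalized counts per gene for each strand setting. The counts of the second stranded setting were used, since it held 95.5% to 96.0% of pairs assigned by either stranded setting. The 4 lines that name no gene (26.7% to 34.4% of pairs) were left out. Per the labels the kit was SMARTER mRNA-Seq, while the study's methods give KAPA RNA HyperPrep with ribosomal depletion, and which one was used is not settled here. Median counts on genes were 42431965 per library. Limits from 3 counts cover counting error only.

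Symbols and positions came from GENCODE M21 on the same build, which matched 55230 of 55471 identifiers. edgeR 4.0.16 in R 4.3.3 filtered genes by group (minimum count 10, total 15), which left 17522, scaled them with TMM and fitted its quasi-likelihood model (legacy method) to all 24 libraries, after the study's methods. Genes were called at a Benjamini-Hochberg FDR under 0.05 over all genes tested. The SE is the log2 fold change over the square root of F. Levels are CPM, and ratios used the union of exons. Against a group with at most 3 counts in every library a bound was computed from 3 counts per library. log2 CPM for Pearson's r had a prior count of 2 and covered genes whose mean was above 1 on that scale. Scripts were tested on simulated data.

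The members and lists were chosen with earlier results of these data known. Named genes were the 3 members, up to 4 called genes per list and direction with the largest fold change, 10 genes named whatever they did (Traf6, Lgr4, Tnfsf10, Csf1, Vdr, Pth1r, Adam10, Mmp14, Runx2 and Crem), up to 6 tested neighbours per member, the 5 genes of highest r, Stk11 and Crtc2. The markers Pdgfra, Dcn, Col1a2, Thy1, Acp5, Oscar, Itgb3, Ctsk, Phex, Ibsp, Sost, Adgre1, Lck and Cd3e were named after their values were seen. Alternatives were unstranded counts, DESeq2 size factors, upper quartile scaling, edgeR's newer method, no filter, a filter at 10 counts in all libraries, a replicate block, DESeq2 1.42.0, the groups compared alone, each library left out, the longest transcript, 250 kb and rank correlation.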

Additional observations from a re-analysis of the deposited data

Results flagged for a closer look

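Reads assigned to the opposite strand setting, which the main fit above did not use, reached counts above those of the WT libraries at each of the 3 genes, at low counts. For Tnfsf11 they reached 10 counts in stimulated clone A2 replicate 3 (0.284% of its pairs on both strands), with 0 in all 6 WT libraries, where the sense strand was at 0 as well. For Tnfrsf11b they reached 4 counts in untreated Lkb1-/- replicate 2 (1.42%), with 0 on either strand in WT. Since these 2 genes had no sense counts in WT either, the comparison with WT says nothing for them. For Tnfrsf11a they reached 10 counts in untreated Lkb1-/- replicate 1 (1.20%), against at most 5 in WT, and this was the only library above WT, with at most 3 in any clone library.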

How the results depend on the processing

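Of the recomputed values 821 stayed within the spread between replicates or within 1.5 times the count and 49 moved further, and no log2 difference of a named call reversed. Nothing in the labels says what a replicate number stands for. Deviations of libraries with the same number correlated (0.0355 to 0.589, 69 of 84 over 0.1), and 23 of 24 libraries lay nearest their own number, a hint from the data of structure shared by number, but not every correlation exceeded 0.1, so the libraries were not treated as paired. With the replicate number as a block, pathway genes called were 51 for stimulated A2 against Lkb1-/- (46.6% of all genes were called), 21, 25 and 41 for IL-1β in WT, A1 and A2 (9.3%, 9.61% and 17.9% of all genes), and 9 and 2 for the response differences of Lkb1-/- from WT and of A1 from Lkb1-/- (1.77% and 0.205%). By number, Tnfrsf11b was lower with IL-1β in 3 of 3 libraries in Lkb1-/- and in A2 and in 2 of 3 in A1, with blocked log2 fold changes of -0.44, -0.45 and 0.081. The block changed the Tnfrsf11b response difference of A2 from Lkb1-/- to -0.012, and upper quartile scaling changed it to -0.013. With no filter the counts were 19, 16 and 31 for IL-1β in WT, A1 and A2 (2.59%, 2.47% and 4.47% of all genes), and 8, 7 and 1 for the response differences of Lkb1-/- from WT, A1 from Lkb1-/- and A2 from Lkb1-/- (0.943%, 0.383% and 0.185%). IL-1β in A2 gave 9 with only the groups compared (1.54% of all genes). The response difference of Lkb1-/- from WT gave 1 with upper quartile scaling, with at least 10 counts in all libraries, with only the groups compared and with DESeq2 (0.434%, 0.549%, 0.421% and 0.878% of all genes), which also gave 1 for A1 from Lkb1-/- (0.0871%). Leaving out each library gave 4 to 12 for IL-1β in WT, 3 to 4 in A1, and 0 to 1 for the response difference of Lkb1-/- from WT. It moved the response difference of A2 from Lkb1-/- between 1.06 and 1.85 for Tnfsf11 and between -0.39 and 0.35 for Tnfrsf11b. For Tnfrsf11b it gave -0.094 to 0.25 for stimulated A1 against Lkb1-/-, -0.067 to 0.17 for IL-1β in A1 and -0.044 to 0.69 for stimulated A2 against A1, so none of these has a settled direction. The Tnfrsf11a difference of Lkb1-/- from WT was 0.58 with unstranded counts and 0.73 with upper quartile scaling untreated, 0.41 with upper quartile scaling after IL-1β, and that of untreated A1 from Lkb1-/- 0.10 with only the groups compared. Within 250 kb, 6, 5, 2, 1, 1 and 1 genes were called in the 6 genotype comparisons (untreated and stimulated Lkb1-/- against WT, untreated A1 and A2 and stimulated A1 and A2 against Lkb1-/-), where fewer genes were tested. In the same order 55.9%, 57.4%, 35.3%, 32.3%, 36.7% and 32.8% of all genes were called. The 250 kb counts are given without shares of their own, so they are not set against these. By rank correlation 2, 1 and 0 of the 5 genes most like Tnfsf11, Tnfrsf11b and Tnfrsf11a were shared. Beyond fewer genes, the cause of these changes was not tested. Tnfrsf11b rests on 110 to 405 counts per library, and 3 libraries against 3 cannot reach an exact permutation p below 0.1.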
